A study of Mus musculus with 2 samples.

Results

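The 38 genes described here encode enzymes and carriers of fatty acid oxidation, together with further genes known as targets of the peroxisome proliferator-activated receptors (PPARs). They were chosen by gene symbol out of the 32285 genes counted, though with earlier results of these data known. They comprised 20 mitochondrial, 7 peroxisomal and 11 other target genes. Intestinal epithelial cells came from wild type (WT) littermates and from MG53-TG mice, which overexpress MG53 globally. MG53, the product of Trim72, is an E3 ubiquitin ligase of the tripartite motif family. Both groups drank 2.5% dextran sulfate sodium (DSS), which injures the gut lining, and cells were taken on day 7. Cells dissociated from crypts and sorted as EpCAM positive and 7-AAD negative, that is epithelial and alive, gave 1 droplet library per genotype. The study drew on several mice of each genotype, but the count tables do not tell the mice apart, so each genotype is 1 sample. The promoter of the transgene and the age of the mice are not given in the sources used here.

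Fatty acids are activated to acyl-CoA by Acsl enzymes, enter mitochondria through the carnitine shuttle, and are shortened there in repeated cycles of dehydrogenation, hydration, a further dehydrogenation and thiolysis, with electrons passed on by the electron transfer flavoprotein. Peroxisomes run a related cycle on very long and branched chains. PPARs are nuclear receptors that bind fatty acids and, paired with retinoid X receptors, raise the transcription of many genes of both cycles. In the small intestine, fatty acid oxidation and PPAR targets are known to be prominent in absorptive cells, which take up dietary fat, and fatty acid oxidation is also known to sustain intestinal stem cells.

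A level here is the number of unique molecular identifiers (UMIs) of a gene per 1000000 UMIs of the same cells (CPM), with an exact 95% Poisson interval where one is given. A log2 ratio is that of MG53-TG over WT with an exact 95% binomial interval, and was used for genes with 30 or more UMIs over both libraries. With 1 library per genotype there is no replicate error, so no difference between genotypes was tested and the intervals cover counting error only. Reads came from the 3′ end of transcripts, so UMIs are not scaled by length, and levels of different genes are set side by side as captured. In summed cells, fewer cells of a subtype and less RNA per cell cannot be told apart.

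After filtering, 6963 WT and 4941 MG53-TG cells remained, with medians of 14035 and 17950 UMIs. Of these, 6119 and 4606 were epithelial and are summed below as the epithelial sum. Trim72 had 0.594 CPM in the WT and 50.8 CPM in the MG53-TG epithelial sum, the direction that the labels give. Cell types were named from marker genes after clustering without the genes described here. The program version and the barcode filter of the count tables coincided with genotype and cannot be told apart from it. Barcodes over the mitochondrial limit made up 33.7% in WT and 46.1% in MG53-TG. Despite the sort, a T cell-like group of 642 and 251 cells was captured. Goblet-like cells made up more of the MG53-TG library (1478 of the epithelial cells against 1163 in WT) and Paneth-like cells less (119 against 250). Colon markers summed to 24.2 and 17.4 CPM, small next to 398 and 425 CPM for proximal small intestinal markers, and distal small intestinal markers to 592 and 369 CPM. Free RNA in droplets can add UMIs of other cells. As a gauge, Creb3l3, which T cells should lack, had 9.44 CPM in the WT and 3.12 CPM in the MG53-TG T cell-like group. Before doublet removal, 8 cell barcodes passed the filters in both libraries.

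RefSeq promoter windows (build GRCm38.p6, 250 bases before to 50 bases after the start site) were found for 30 of the 38 genes, in 33 windows. They were searched on both strands for the PPAR element, which is 2 copies of AGGTCA separated by 1 base. No member window held it exactly or with 1 mismatch, matches found in 0.0396% and 0.554% of all 32851 windows. With 2 or fewer mismatches among 12 letters, 5 of the 33 member windows (15.2%) held it, against 3.86% of all windows. The 5 matches are shown because they are the nearest any member comes to a PPAR element in these windows. Capitals mark the match, and each stretch is written 5′ to 3′ along the gene.
Creb3l3, chr10:81092780-81092808, minus strand: ctgtaagtAGGGGAGAGGTCAcacagacc
Echs1, chr7:140116484-140116512, minus strand: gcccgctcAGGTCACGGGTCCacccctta
Etfa, chr9:55512300-55512328, minus strand: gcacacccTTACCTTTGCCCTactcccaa
Plin2, chr4:86670264-86670292, minus strand: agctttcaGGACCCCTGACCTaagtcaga
Slc25a20, chr9:108662134-108662162, plus strand: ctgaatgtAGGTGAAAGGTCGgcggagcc
The Creb3l3 and Plin2 matches began 209 and 225 bases before the start site of their window, those of Echs1 and Etfa 83 and 77 bases before it, and that of Slc25a20 began 6 bases after it. Creb3l3 had 2 windows, and the match lay in the inner of them. The window at the annotated 5′ end of the gene came no closer than 4 mismatches. A match is a likeness of letters and not a shown binding site, and elements outside the windows were not searched.

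Hadha and Hadhb encode the subunits of the mitochondrial trifunctional protein and lie head to head on chromosome 5, with 273 bases between their start sites. Their promoter windows share 228 bases, shown because the levels of these genes are followed together below. The stretch is written along the Hadhb strand.
Hadha and Hadhb shared stretch, chr5:30155003-30155230, plus strand: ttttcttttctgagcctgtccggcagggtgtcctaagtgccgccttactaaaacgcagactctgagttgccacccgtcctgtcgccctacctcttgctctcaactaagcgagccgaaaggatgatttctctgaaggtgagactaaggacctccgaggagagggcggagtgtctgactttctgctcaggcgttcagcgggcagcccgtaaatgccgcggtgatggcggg

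The members were highest in absorptive cells and lowest in Paneth-like cells in both libraries. The 20 mitochondrial genes together reached 4396 CPM (interval 4364 to 4428) in WT and 5034 CPM (4984 to 5085) in MG53-TG early absorptive-like cells. In enterocyte-like cells the same sum was 3903 CPM in WT against 4166 CPM in MG53-TG, and in stem-like cells 3406 and 3610 CPM. Paneth-like cells, which secrete antimicrobial peptides, held 586 and 536 CPM, and goblet-like cells, which secrete mucin, 1562 and 1906 CPM. Thus, in these sums, the stem-like cells lay between the absorptive and the secretory types. Single clusters, described below, did not all keep this order. In WT, enterocyte-like clusters 7 and 12 held 2194 and 1740 CPM, under the 3275 and 3495 CPM of stem-like clusters 4 and 3. Against the T cell-like group, at 1116 and 1119 CPM, only Paneth-like cells among the epithelial types had a smaller mitochondrial sum. These levels are shares of the UMIs of each cell type and not amounts per cell. Paneth-like cells had medians of 47965.5 and 38984 UMIs per cell, against 2860 and 3580 in the T cell-like group. A low share there is thus not a low number of UMIs per cell.

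**Figure D1:**
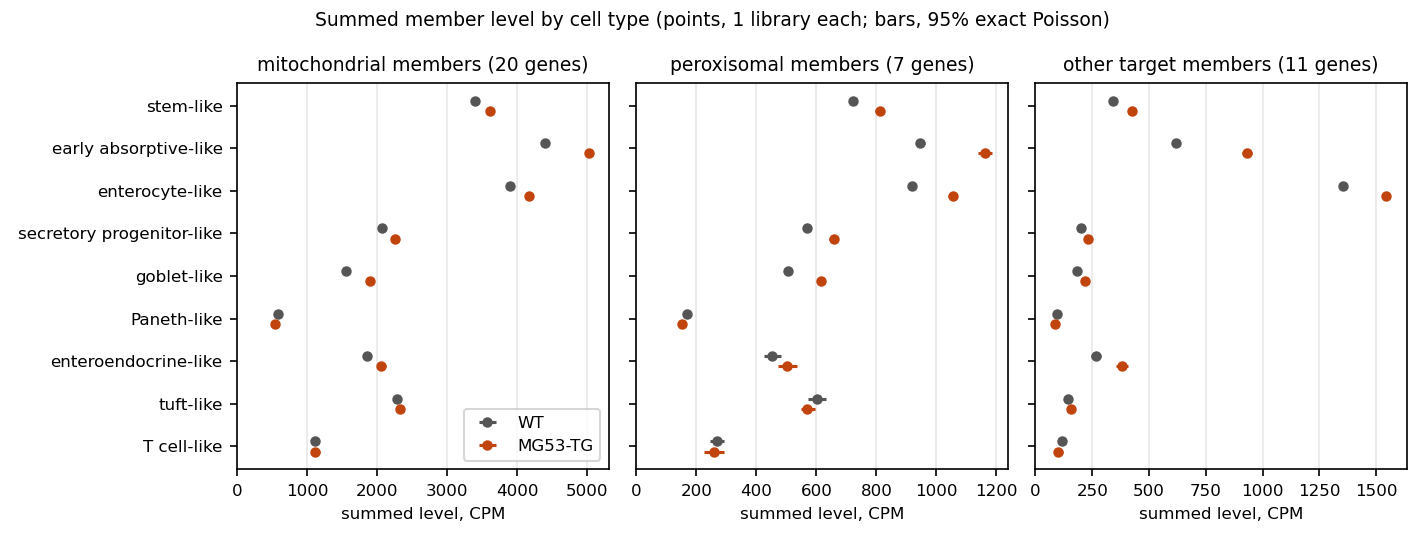
Summed level in CPM (x axis) of the mitochondrial, peroxisomal and other target members in each cell type (y axis), with 1 point per library and exact 95% Poisson bars that are often shorter than the point. The early absorptive-like cells have the highest mitochondrial sum, and enterocyte-like cells have the highest sum of other targets at 1355 CPM in WT against 1543 CPM in MG53-TG.

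The peroxisomal sum was likewise highest in absorptive cells and lowest in Paneth-like cells, with 946 and 1162 CPM in early absorptive-like cells, 919 and 1054 CPM in enterocyte-like cells and 168 and 153 CPM in Paneth-like cells. The other targets were more confined to mature cells. Their sum was 1355 CPM in WT against 1543 CPM in MG53-TG enterocyte-like cells but 343 and 427 CPM in stem-like cells. Expressed as enterocyte-like over stem-like cells, the other targets had log2 ratios of 1.98 and 1.85, against 0.20 and 0.21 for the mitochondrial and 0.35 and 0.38 for the peroxisomal genes. The small mitochondrial ratio depended on the clustering and the way cells were averaged, and was -0.10 in WT and -0.06 in MG53-TG as a mean over single cells.

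Paneth-like cells held the lowest level of 28 (WT) and 31 (MG53-TG) of the 37 members with any UMI, and 33 were highest in the same cell type in both libraries. The exceptions to absorptive cells are named here. Slc25a20, the carrier that exchanges acylcarnitine for carnitine across the inner mitochondrial membrane, was highest in tuft-like cells at 149 CPM in WT against 136 CPM in MG53-TG. Pdk4, which encodes a kinase that restrains pyruvate use, was highest in enteroendocrine-like cells at 33.1 and 35.0 CPM. Acsl1, an acyl-CoA synthetase, was also highest there, at 75.4 and 134 CPM. Acot1, a cytosolic acyl-CoA thioesterase, was highest in stem-like cells at 46.6 and 55.4 CPM. Cpt1a, the carnitine palmitoyltransferase of the outer membrane that gates entry, was highest in WT tuft-like cells at 121 CPM, within the interval of the 121 CPM of WT early absorptive-like cells.

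Within the absorptive lineage the members did not follow 1 course. Clusters are named below by number and leading gene. Stem-like cells formed cluster 4, led by Olfm4 and Gkn3, and the cycling cluster 3, led by histone genes. Early absorptive-like cells formed cluster 1, led by Gsdmc genes, and cluster 13, led by Fabp6, which marks the ileum. Enterocyte-like cells formed clusters 11 (led by Cyp4a10, G0s2 and Adh4), 5 (Sult6b2, S100g), 10 (Mbl2, Apoc3, Lct), 7 (Plb1, Enpp7, Ada) and 12 (Slc6a14, Slc10a2, Fgf15, the last pair ileal). Cluster 11 was named on 5 of the 18 enterocyte markers, while clusters 5, 7, 10 and 12 met 15 to 18 of them. It also met 2 of 7 colonocyte markers, under the 3 needed for a name. Cluster 13 met 10 of the 18 enterocyte markers beside 4 of 6 early absorptive markers. Clusters 7 and 12 were shallow, with medians of 4963.5 and 3699.5 UMIs, and the median mitochondrial share of UMIs was 12.4% in cluster 7 against 5.03% in cluster 1.

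**Figure D2:**
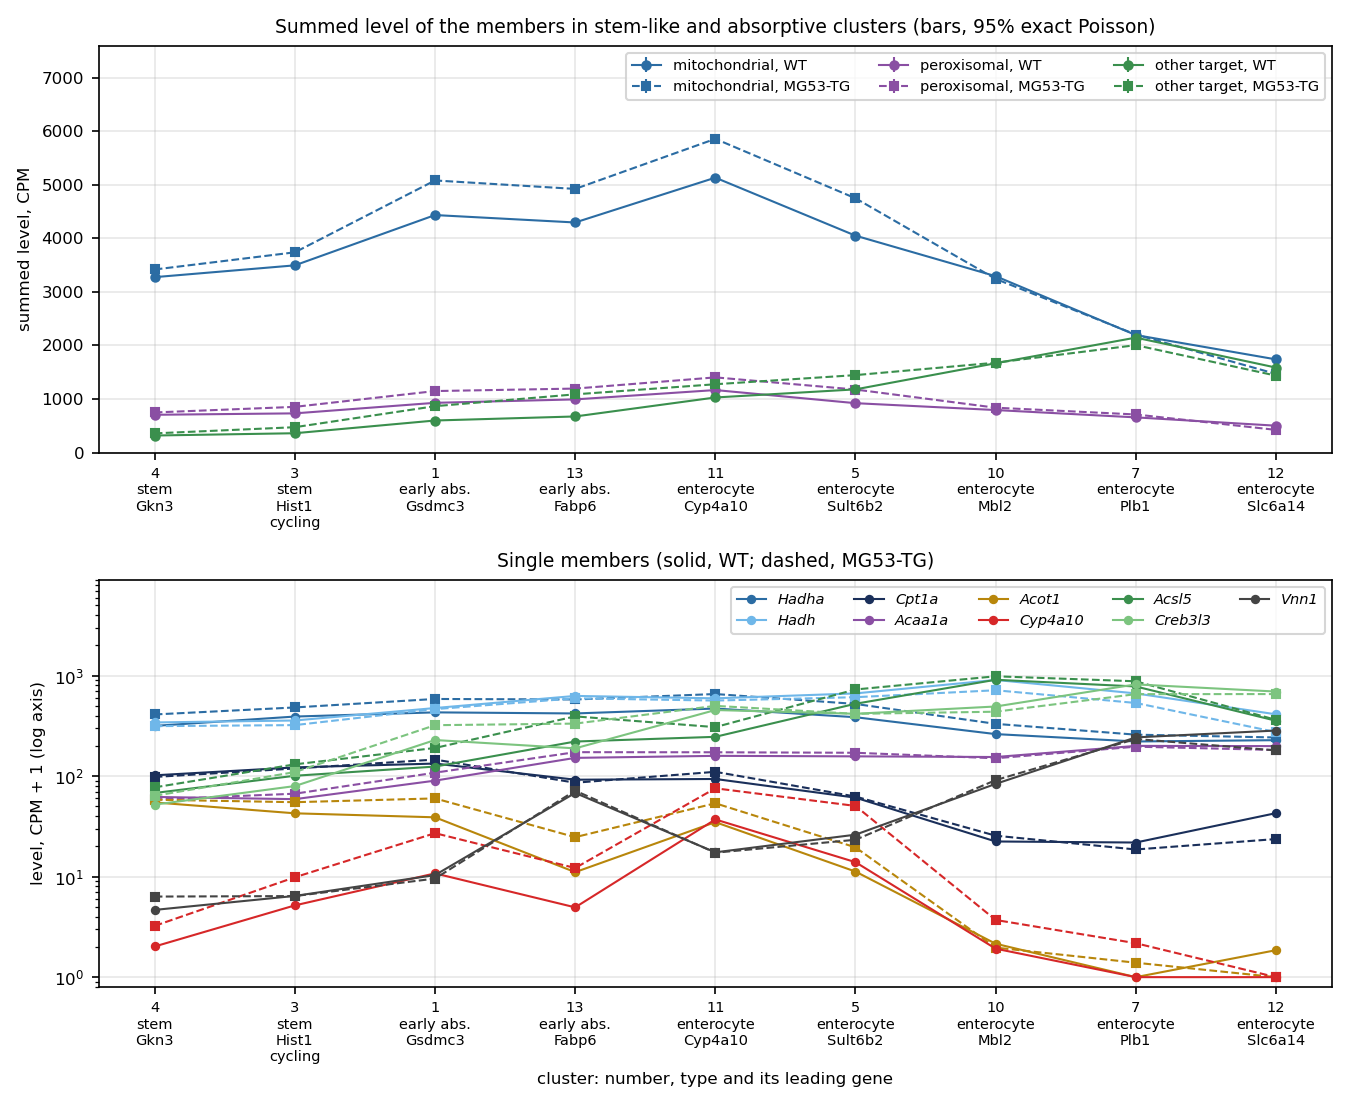
Upper panel, summed level in CPM (y axis) of the mitochondrial, peroxisomal and other target members in 9 stem-like and absorptive clusters (x axis, in an order chosen for drawing and not inferred), with exact 95% Poisson bars; lower panel, single members on a log axis of CPM + 1, solid for WT and dashed for MG53-TG. The mitochondrial sum is highest in cluster 11, at 5132 CPM in WT against 5857 CPM in MG53-TG, whereas the other targets are highest in cluster 7, at 2146 and 2005 CPM.

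The mitochondrial sum was 3275 CPM in WT against 3418 CPM in MG53-TG in cluster 4, 4434 and 5080 CPM in cluster 1, 5132 and 5857 CPM in cluster 11, and 2194 and 2204 CPM in cluster 7. The other targets took a different course, from 318 and 358 CPM in cluster 4 to 598 and 866 CPM in cluster 1, 1028 and 1275 CPM in cluster 11 and 2146 and 2005 CPM in cluster 7. So cluster 7 held about as many UMIs of the 11 other targets as of the 20 mitochondrial genes.

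Cluster 7 was compared with cluster 1 within each library, a pair chosen after the values were seen but named by markers outside the list. Of the 20 mitochondrial genes, 11 were past 2-fold lower in cluster 7 in WT, beside 32.4% of all genes, and 14 in MG53-TG, beside 30.5% of all genes. Of the 10 other targets past the filter, 6 in WT were past 2-fold higher, beside 21.6% of all genes, and 5 in MG53-TG, beside 21.2% of all genes. The median log2 ratio was -1.09 in WT and -1.18 in MG53-TG for the mitochondrial genes, 1.66 and 0.85 for the other targets, and -0.20 and -0.16 for all genes. When only cells with 3000 or more UMIs and at most 15% mitochondrial UMIs were used, 9 mitochondrial genes in WT and 14 in MG53-TG were past 2-fold lower, and 6 and 4 other targets past 2-fold higher. Scaled by the median of ratios between the clusters, 3 other targets were past 2-fold higher in MG53-TG.

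Among the mitochondrial genes, Acot2, Cpt1a and Acaa2 differed most. Cpt1a had 133 CPM in cluster 1 and 20.9 CPM in cluster 7 of WT, and 145 and 17.6 CPM in MG53-TG. Acaa2, the mitochondrial thiolase, went from 485 to 99.1 CPM in WT and from 603 to 74.9 CPM in MG53-TG. Acot2, a mitochondrial acyl-CoA thioesterase, went from 31.6 to 1.42 CPM and from 53.7 to 4.31 CPM. The trifunctional protein subunits were lower in cluster 7 as well, Hadha with log2 ratios of -0.97 and -1.18 and Hadhb with -2.02 and -2.09. The difference was larger for Hadhb than for Hadha in both libraries.

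Hadh, the short-chain 3-hydroxyacyl-CoA dehydrogenase that acts at the step after hydration, went the other way. It had 476 CPM in cluster 1, 907 CPM in cluster 10 and 666 CPM in cluster 7 of WT, and 464, 716 and 534 CPM in MG53-TG. Its log2 ratio of cluster 7 over cluster 1 was 0.48 in WT and 0.20 in MG53-TG. Crat, carnitine acetyltransferase, was higher in cluster 7 too, with log2 ratios of 1.94 and 1.66. These were the only mitochondrial members higher in cluster 7 in both libraries. Pdk4 was higher in WT alone, at 24.2 against 7.63 CPM, while MG53-TG had 10.6 CPM in both clusters.

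The peroxisomal genes split between the courses. Acaa1a and Acaa1b, peroxisomal thiolases, were higher in cluster 7, Acaa1a at 199 against 89.3 CPM in WT and 196 against 107 CPM in MG53-TG. Ehhadh and Hsd17b4, the peroxisomal bifunctional enzymes, were higher as well, with log2 ratios of 0.71 and 0.74 for Ehhadh and 0.52 in each library for Hsd17b4. Ech1 and Eci2, isomerases that handle unsaturated chains, were lower, Ech1 at 141 against 417 CPM in WT and 158 against 543 CPM in MG53-TG. Pex11a, which promotes peroxisome division, was lower, at 54.5 against 90.1 CPM in WT and 41.6 against 83.1 CPM in MG53-TG.

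Among the other targets, Vnn1, a pantetheinase, had the largest ratio above 0, from 9.37 to 242 CPM in WT and from 8.58 to 234 CPM in MG53-TG. Acsl5, the major acyl-CoA synthetase of enterocytes, went from 124 to 781 CPM and from 190 to 879 CPM. Creb3l3, a membrane-bound transcription factor of lipid metabolism, went from 228 to 819 CPM and from 321 to 654 CPM. Slc22a5, the carnitine uptake transporter, was higher in cluster 7 by 2.07 and 2.05 on the log2 scale. The lipase inhibitor Angptl4 was higher by 2.35 in WT and 0.67 in MG53-TG.

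Cyp4a10, a fatty acid omega-hydroxylase, marked cluster 11 although it was left out of the clustering. It had 1.02 CPM in cluster 4, 9.78 CPM in cluster 1, 36.1 CPM in cluster 11, 12.9 CPM in cluster 5 and 0 UMIs in cluster 7 of WT. In MG53-TG the same clusters had 2.24, 26.1, 74.8, 49.6 and 1.18 CPM. It was thus highest in the middle of the drawn order in both libraries. Acot1 was found in stem-like and early cells and was close to absent from cluster 7, with 0 UMIs in WT and 0.392 CPM in MG53-TG. Plin2, which coats lipid droplets, was also lower in cluster 7, at 28.5 against 99.3 CPM in WT and 20.4 against 123 CPM in MG53-TG.

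**Figure D3:**
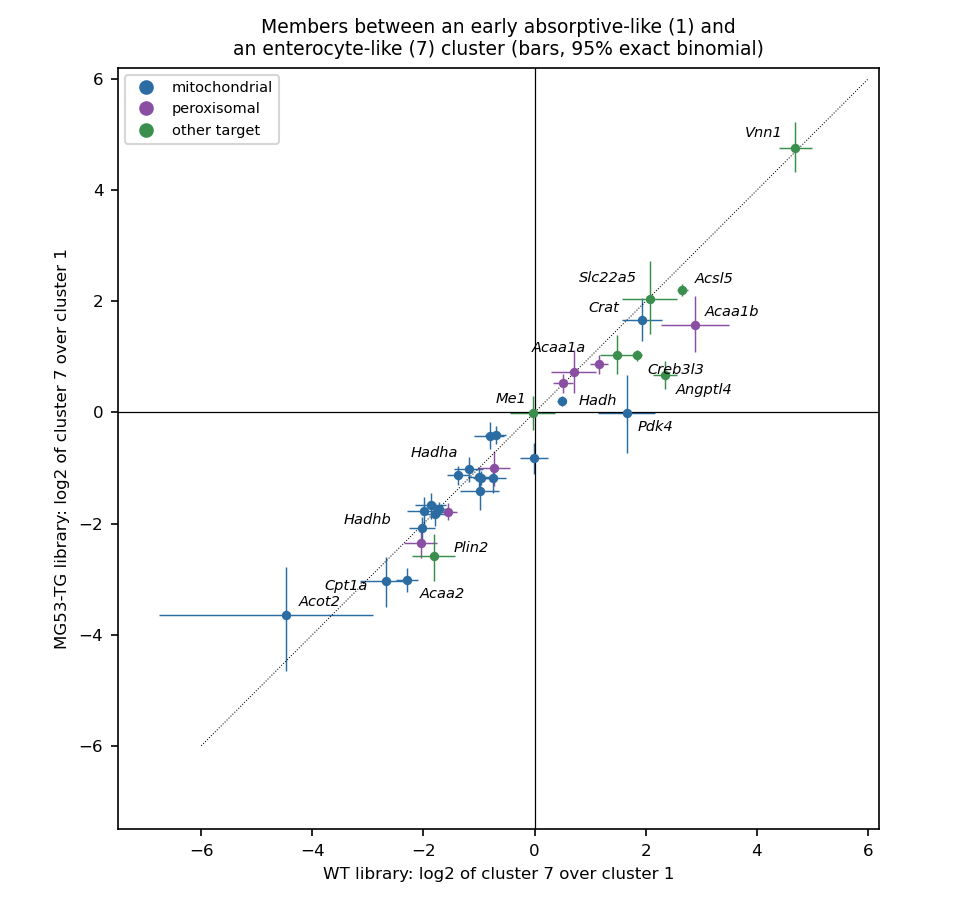
Log2 ratio of the level in cluster 7 to that in cluster 1 for each member, WT on the x axis and MG53-TG on the y axis, with exact 95% binomial bars and the diagonal dotted, for the members with a UMI in both clusters of both libraries. Most mitochondrial members lie below 0 on both axes, while Hadh, Crat and most other targets lie above 0, and Angptl4 and Pdk4 lie furthest below the diagonal among the labelled genes above 0 in WT.

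Over the epithelial clusters measured (20 in WT and 21 in MG53-TG), the median pairwise Spearman correlation of levels among mitochondrial genes was 0.71 in WT and 0.70 in MG53-TG. These are descriptions across clusters that share a library and not tests. Against the summed level of the other mitochondrial genes, Echs1 (0.95 and 0.97), Hadha (0.90 and 0.95) and Eci1 (0.91 and 0.95) lay close to it, while Cpt1a (0.21 and 0.34) and Acsl1 (-0.04 and -0.15) were far from it.

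Between genotypes, the members as a whole differed little in the epithelial sum. Together they had 4044 CPM in WT against 4278 CPM in MG53-TG. Of the 37 members past the filter, 25 were higher and 12 lower in MG53-TG, with a median log2 ratio of 0.08, and among all 14656 genes 64.5% were higher and the median was 0.09. Of the members, 4 were more than 25% higher, a size that 18.3% of all genes reached, and 0 were more than 20% lower, the same fold, a size that 7.48% of all genes reached. The median was 0.04 for mitochondrial, 0.18 for peroxisomal and 0.11 for other target genes. Scaling by the median of ratios lowers every epithelial ratio by 0.09, and brings the mitochondrial median to -0.06. As a mean over single cells, the mitochondrial median was -0.04 and that of the other targets -0.11, so the sign of both depended on how cells were averaged.

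The 4 members past 25% higher were Cyp4a10, Me1, Acaa1b and Acsl5. Cyp4a10 had 550 UMIs (5.19 CPM) in WT against 964 UMIs (10.7 CPM) in MG53-TG, a log2 ratio of 1.05 (0.89 to 1.20). Me1, the malic enzyme that supplies NADPH, had 2063 UMIs (19.5 CPM) and 3095 UMIs (34.4 CPM), a log2 ratio of 0.82 (0.74 to 0.90). The intervals of these ratios lie far from 0, but counting error alone is in them.

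Acaa1b had 750 UMIs (7.07 CPM) in WT against 966 UMIs (10.7 CPM) in MG53-TG, a log2 ratio of 0.60 (0.46 to 0.74). Acsl5 had 18295 UMIs (173 CPM) and 20282 UMIs (226 CPM), a log2 ratio of 0.39 (0.36 to 0.42). Acaa1b and Acaa1a are near-identical copies, as are Acot1 and Acot2 in part and the Cyp4a genes, and how reads shared between copies were counted is not stated, so their separate values are uncertain. The other Cyp4a copies counted had 5 or fewer UMIs in each library. Cyp4a14, the close neighbor of Cyp4a10 on chromosome 4, had 0 UMIs in both libraries, which allows a level of up to 0.0283 CPM in WT or 0.0334 CPM in MG53-TG when 3 UMIs are taken as the limit.

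The MG53-TG library held a larger goblet-like and a smaller Paneth-like share, so the genotypes were also compared within cell types. By the median ratio and by the count past 25% higher, the members differed most in early absorptive-like cells, a cell type singled out after its values were seen. In early absorptive-like cells 31 of 37 members were higher in MG53-TG, beside 59.7% of all genes, and 16 were more than 25% higher, beside 14.2% of all genes, while 0 were as far lower, beside 9.28% of all genes. The median log2 ratio was 0.22 for mitochondrial, 0.36 for peroxisomal and 0.63 for other target genes, against 0.06 for all genes. With scaling by the median of ratios the count past 25% higher was 9. These cells numbered 924 in WT and 340 in MG53-TG, and their distal small intestinal markers were lower in MG53-TG, at 1425 against 2062 CPM. Their enterocyte list of 18 genes was higher, at 8194 against 6939 CPM with 13 of 18 genes higher, and their early absorptive list of 6 genes summed to 3312 against 3659 CPM with 4 of 6 higher. The part of these markers in the member ratios was not tested. The difference was seen in each of their clusters: 31 of 37 members were higher in cluster 1 and 31 of 36 in cluster 13, beside 59.5% and 57.5% of all genes, with median ratios of 0.27 and 0.29 beside 0.06 and 0.05.

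**Figure D4:**
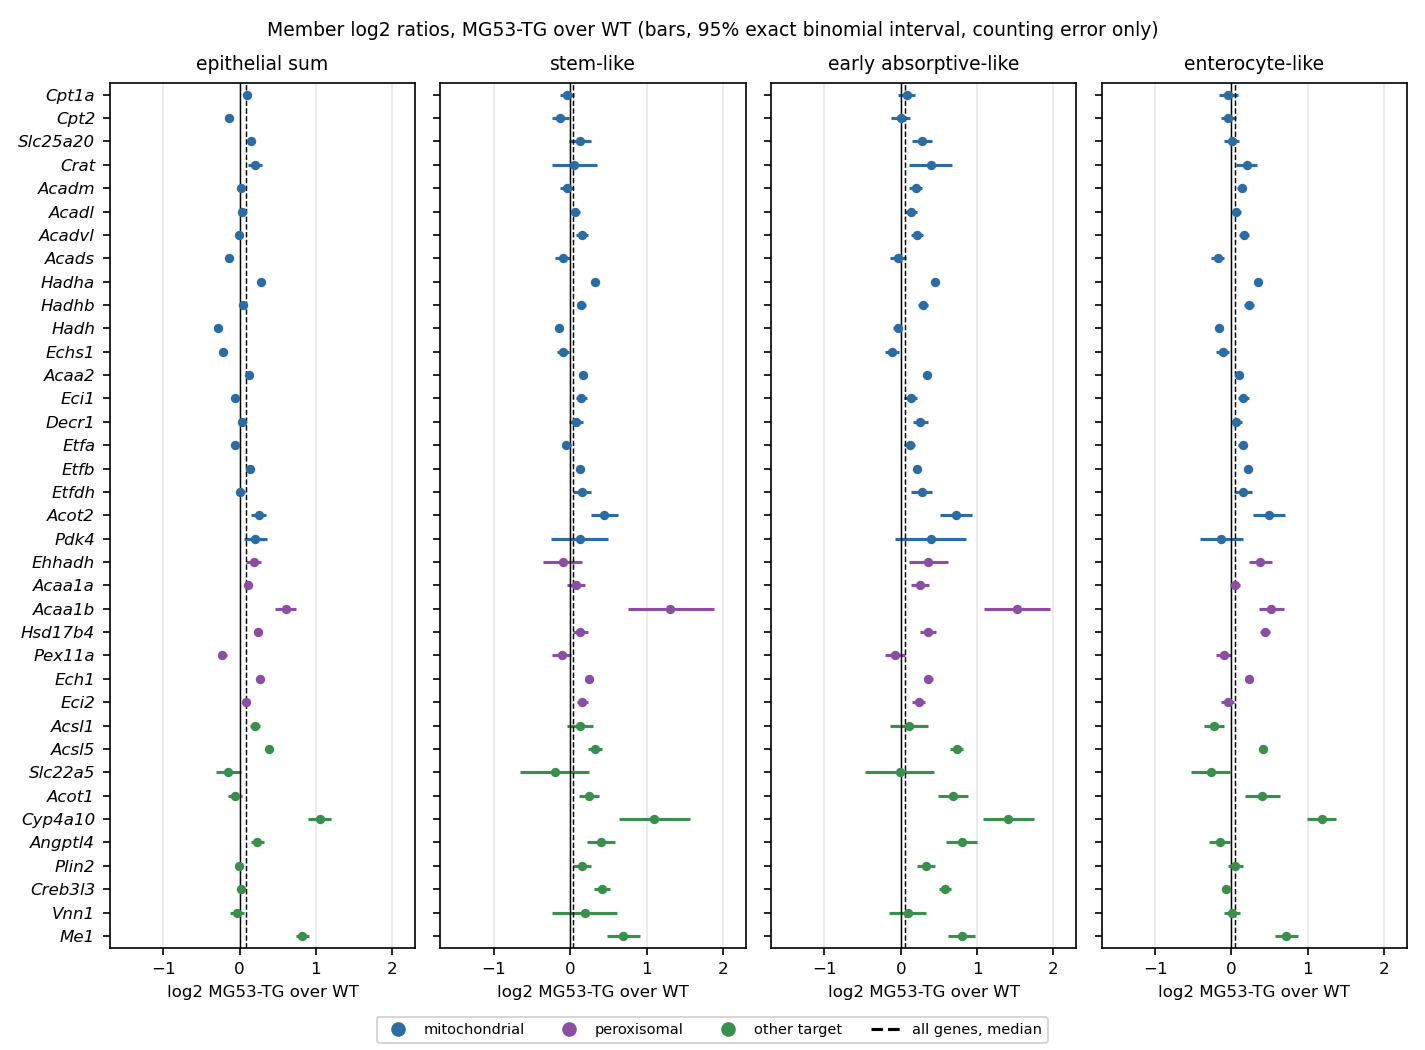
Log2 ratio of MG53-TG over WT (x axis) for the 37 detected members (y axis) in the epithelial sum and in stem-like, early absorptive-like and enterocyte-like cells, colored by compartment, with exact 95% binomial bars; the dashed line is the median of all genes. In early absorptive-like cells most points lie to the right of the dashed line, and Hadh and Echs1 lie to the left of 0 in all panels.

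In stem-like cells, 27 of 37 members were higher in MG53-TG, beside 57.3% of all genes, 8 of them by more than 25%, beside 9.89% of all genes, and 0 were as far lower, beside 6.56% of all genes. The medians were 0.10 for mitochondrial, 0.13 for peroxisomal and 0.29 for other target genes, against 0.03 for all genes. The stem list of 10 genes summed to 1907 CPM in WT against 2694 CPM in MG53-TG in these cells, with 10 of 10 higher, and the early absorptive list to 3786 and 2978 CPM, with 2 of 6 higher. The part of these markers was not tested. This was most visible in the cycling cluster 3, where 27 of 37 members were higher with a median of 0.18, beside 56.7% of all genes. In cluster 4, led by Olfm4, 20 of 35 were higher with a median of 0.05, beside 54.3% of all genes, and the mitochondrial median was -0.06. With finer clustering, which left 512 and 278 stem-like cells and gave 1395 and 546 early absorptive-like cells, the stem-like count past 25% higher was 1 and that past 20% lower 2, and the mitochondrial and peroxisomal medians turned to -0.04 and -0.11.

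In enterocyte-like cells, 25 of 37 members were higher, beside 57.7% of all genes, 9 of them by more than 25%, beside 10.6% of all genes, and 0 were as far lower, beside 9.70% of all genes. The medians were 0.12, 0.24 and 0.03 for mitochondrial, peroxisomal and other target genes, against 0.04 for all genes. Distal small intestinal markers in these cells summed to 1157 CPM in WT against 984 CPM in MG53-TG, with 2 of 6 higher. The enterocyte list summed to 37266 and 39786 CPM, with 12 of 18 higher. Secretory markers in these cells are given below, and the part of all these markers was not tested. The clusters differed from each other. Members higher in MG53-TG numbered 31 of 37 in cluster 11 and 28 of 37 in cluster 5, but 22 of 35 in cluster 10, 18 of 34 in cluster 7 and 7 of 31 in cluster 12, with medians of 0.24, 0.17, 0.08, 0.04 and -0.14. Of all genes, 60.2%, 58.3%, 66.3%, 55.9% and 44.5% were higher in clusters 11, 5, 10, 7 and 12, with medians of 0.06, 0.05, 0.10, 0.04 and -0.06. Cluster 12 held 272 WT and 100 MG53-TG cells.

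Of the carnitine shuttle genes, none was past 25% higher or 20% lower in the epithelial sum, sizes that 18.3% and 7.48% of all genes reached. Cpt1a had 90.2 CPM in WT against 96.2 CPM in MG53-TG. Cpt2, which returns the acyl group to CoA inside the mitochondrion, had 7094 UMIs (66.9 CPM) and 5458 UMIs (60.7 CPM), a log2 ratio of -0.14 (-0.19 to -0.09). Slc25a20 had 51.1 and 56.5 CPM and Crat 16.7 and 19.2 CPM. Slc25a20 and Crat were higher in early absorptive-like cells, by 0.28 (0.15 to 0.40) and 0.39 (0.10 to 0.67), where Cpt1a was 0.07 (-0.04 to 0.19). For Slc25a20 this rested on cluster 1, at 0.45 (0.29 to 0.60), while in cluster 13 it was -0.05 (-0.27 to 0.17).

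Of the mitochondrial cycle, Hadha was the more abundant of the trifunctional pair and differed more between genotypes than its partner. It had 29986 UMIs (283 CPM) in WT against 30922 UMIs (344 CPM) in MG53-TG, a log2 ratio of 0.28 (0.26 to 0.30). Hadhb had 172 CPM in WT against 177 CPM in MG53-TG, a log2 ratio of 0.04 (0.01 to 0.07). That ratio was -0.048 with scaling by the median of ratios and -0.0055 as a mean over single cells. Within cell types the subunits were closer, with 0.33 and 0.14 in stem-like, 0.45 and 0.29 in early absorptive-like and 0.35 and 0.23 in enterocyte-like cells. Each subunit was higher in 7 of 8 epithelial cell types, and Hadha was higher in all 9 stem-like and absorptive clusters.

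Hadh was lower instead. It had 35752 UMIs (337 CPM) in WT against 24932 UMIs (277 CPM) in MG53-TG, a log2 ratio of -0.28 (-0.31 to -0.26), and was lower in each of the 9 stem-like and absorptive clusters, with log2 ratios from -0.59 to -0.04 and 6 of 9 intervals below 0. It was the only 1 of the 31 members measured in all 9 clusters that was lower in each, whereas Hadha, Acsl5 and Me1 were higher in each, with intervals that included 0 for Hadha and Acsl5 in cluster 12. The share of all genes with a single sign in all 9 clusters was not counted, so these counts have no background beside them. Echs1, the short-chain enoyl-CoA hydratase that precedes Hadh in the cycle, had 11448 UMIs (108 CPM) and 8344 UMIs (92.8 CPM), a log2 ratio of -0.22 (-0.26 to -0.18). Acads, the short-chain acyl-CoA dehydrogenase, had 9377 UMIs (88.4 CPM) and 7205 UMIs (80.1 CPM), a log2 ratio of -0.14 (-0.19 to -0.10). In goblet-like cells these 3 were not lower, at 0.02 for Hadh, 0.16 for Echs1 and 0.07 for Acads.

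The medium-, long- and very long-chain acyl-CoA dehydrogenases stayed close to each other. Acadm had 130 CPM in WT against 131 CPM in MG53-TG, and Acadvl 125 CPM in each. Acadl had 19223 UMIs (181 CPM) and 16734 UMIs (186 CPM), a log2 ratio of 0.04 (0.01 to 0.07), and was the only member higher in MG53-TG in all 8 epithelial cell types. The share of all genes higher in all 8 was not counted. The Acadl ratio in the sum was -0.053 with scaling by the median of ratios and -0.0057 as a mean over single cells. Acadm and Acadvl were higher in early absorptive-like cells, by 0.20 (0.11 to 0.28) and 0.22 (0.13 to 0.30).

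Acaa2 had 35893 UMIs (338 CPM) in WT against 33197 UMIs (369 CPM) in MG53-TG, a log2 ratio of 0.13 (0.10 to 0.15), and reached 0.34 (0.28 to 0.39) in early absorptive-like cells. Eci1 and Decr1, which prepare unsaturated chains for the cycle, were close to 0 at -0.06 and 0.03. In early absorptive-like cells Decr1 was 0.26 (0.16 to 0.35). The thiolase and the reductase thus showed more in that cell type than in the sum.

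The electron transfer genes carried the highest single level. Etfb, the flavoprotein beta subunit, had 43804 UMIs (413 CPM) in WT against 40982 UMIs (456 CPM) in MG53-TG, a log2 ratio of 0.14 (0.12 to 0.16). Etfa, the alpha subunit, had 177 and 170 CPM, and Etfdh, which passes the electrons to ubiquinone, 44.8 and 45.0 CPM. In early absorptive-like cells all 3 were higher in MG53-TG, by 0.12, 0.22 and 0.27 for Etfa, Etfb and Etfdh. Of the remaining mitochondrial genes, Acot2 had 15.9 and 18.9 CPM, with ratios of 0.45 (0.27 to 0.63) in stem-like and 0.72 (0.51 to 0.93) in early absorptive-like cells. Pdk4 had 6.95 and 8.03 CPM, a log2 ratio of 0.21 (0.06 to 0.36), but -0.074 as a mean over single cells. It was higher in 4 and lower in 3 of the 7 stem-like and absorptive clusters where it passed the filter, from -1.19 to 0.75.

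Of the 7 peroxisomal genes, 6 were higher in the MG53-TG epithelial sum, beside 64.5% of all genes, whose median log2 ratio was 0.09. Ech1 had 31077 UMIs (293 CPM) in WT against 31712 UMIs (353 CPM) in MG53-TG, a log2 ratio of 0.27 (0.24 to 0.29), and Hsd17b4 had 89.7 and 106 CPM, a log2 ratio of 0.24 (0.20 to 0.28). Acaa1b had 1.94 and 4.83 CPM in stem-like, 4.87 and 14.0 CPM in early absorptive-like and 25.8 and 37.0 CPM in enterocyte-like cells, with log2 ratios of 1.31 (0.76 to 1.88), 1.52 (1.09 to 1.95) and 0.52 (0.36 to 0.69). Its copy Acaa1a, at 86.4 and 93.0 CPM in the sum, was 0.08 (-0.04 to 0.20), 0.25 (0.14 to 0.37) and 0.05 (-0.02 to 0.12) in the same cell types. Acaa1b was thus higher in each of these cell types, while the ratio of Acaa1a stayed near that of all genes outside early absorptive-like cells. In stem-like cells the Acaa1b ratio rested on cluster 3, with 32 and 61 UMIs and 1.66 (1.02 to 2.32). Cluster 4 had 15 and 9 UMIs and 0.02 (-1.35 to 1.31). In enterocyte-like cells it was 0.72 in cluster 5 and 0.69 in cluster 11, while the intervals of clusters 7, 10 and 12 held both signs.

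Ehhadh had 15.9 CPM in WT against 18.1 CPM in MG53-TG and Eci2 128 and 135 CPM, ratios of 0.18 (0.08 to 0.28) and 0.08 (0.05 to 0.12). Pex11a was the exception, with 5841 UMIs (55.1 CPM) in WT against 4239 UMIs (47.1 CPM) in MG53-TG, a log2 ratio of -0.22 (-0.28 to -0.17). It was higher in 1 of 8 epithelial cell types. In stem-like cells Ehhadh was below 0 as well, at -0.10 (-0.36 to 0.15) beside -0.11 (-0.24 to 0.02) for Pex11a, and with scaling by the median of ratios Eci2 was -0.00913 in the epithelial sum.

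Of the other targets, Cyp4a10 had the higher level in MG53-TG in all 3 cell types where it passed the filter, with log2 ratios of 1.10 (0.63 to 1.57) in stem-like, 1.41 (1.07 to 1.75) in early absorptive-like and 1.18 (0.99 to 1.38) in enterocyte-like cells. Within cluster 11 it had 228 and 316 UMIs, a log2 ratio of 1.05 (0.80 to 1.30), and within cluster 5, 91 and 347 UMIs, a log2 ratio of 1.94 (1.60 to 2.29). It had 0 UMIs in the T cell-like group of either library.

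Me1 was 0.70 (0.48 to 0.91), 0.80 (0.62 to 0.98) and 0.72 (0.57 to 0.87) in stem-like, early absorptive-like and enterocyte-like cells, and 1.13 (0.94 to 1.32) in goblet-like cells. It also makes NADPH for fatty acid synthesis and is not specific to oxidation. Acsl5 was 0.33 (0.23 to 0.42), 0.73 (0.65 to 0.82) and 0.41 (0.38 to 0.45) in stem-like, early absorptive-like and enterocyte-like cells.

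Angptl4, Creb3l3 and Acot1 were higher in early absorptive-like cells and not in the epithelial sum to the same extent. Angptl4 had 27.1 CPM in WT against 47.3 CPM in MG53-TG early absorptive-like cells, a log2 ratio of 0.80 (0.596 to 1.003), but 46.2 and 41.5 CPM in enterocyte-like cells, -0.15 (-0.29 to -0.02). Creb3l3 had 217 and 324 CPM in the former, 0.58 (0.50 to 0.65), and 500 and 478 CPM in the latter, -0.07 (-0.11 to -0.02). The sign was not uniform among the enterocyte-like clusters. In cluster 11 Angptl4 was 0.96 (0.667 to 1.245) and Creb3l3 0.14 (0.06 to 0.22), while in cluster 7 they were -0.78 (-1.04 to -0.53) and -0.32 (-0.42 to -0.22). Acot1 was 0.68 (0.49 to 0.88) in early absorptive-like and 0.40 (0.18 to 0.63) in enterocyte-like cells but -0.06 (-0.15 to 0.04) in the epithelial sum. Stem-like cells, where its level was highest, numbered 1022 in WT and 504 in MG53-TG.

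Slc22a5 had 703 UMIs (6.63 CPM) in WT against 539 UMIs (5.99 CPM) in MG53-TG, a log2 ratio of -0.15 (-0.31 to 0.02), and was the lowest member in stem-like cells at -0.20 (-0.66 to 0.24) and in enterocyte-like cells at -0.27 (-0.52 to -0.02). Acsl1 had 35.0 and 40.3 CPM in the sum and 1052 UMIs (50.2 CPM) and 836 UMIs (42.9 CPM) in enterocyte-like cells, a log2 ratio there of -0.22 (-0.36 to -0.09). Plin2 (52.0 and 51.7 CPM) and Vnn1 (20.1 and 19.6 CPM) were near equal in the sum.

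In secretory cells the courses differed by type. In goblet-like cells all 20 mitochondrial genes were higher in MG53-TG, with a median of 0.19, beside 63.6% of all genes higher and a median of 0.07, and 11 of 36 members were more than 25% higher, beside 10.7% of all genes. The summed level of all members had a log2 ratio of 0.28 (0.27 to 0.30), against 0.26 (0.24 to 0.27) in early absorptive-like cells. The goblet-like clusters took different shares of the cells in each library, and within the largest, cluster 0 with 749 WT and 1069 MG53-TG cells, the sum was 2474 against 2921 CPM. In clusters 8, 21 and 22 it was 1071, 2756 and 1886 CPM in WT against 1238, 2814 and 2781 CPM in MG53-TG. Angptl4 led among goblet-like cells with 6.11 CPM in WT against 15.4 CPM in MG53-TG, a log2 ratio of 1.33 (1.01 to 1.67). In Paneth-like cells 10 of 35 members were higher, beside 43.2% of all genes, and 10 were more than 20% lower, beside 29.4% of all genes. That share is near that of all genes. In tuft-like cells 13 of 32 members were higher, beside 59.7% of all genes, with a median of -0.06 beside 0.06. Secretory progenitor-like cells, 1 of the 8 epithelial cell types counted above, were not compared as a class, because the Paneth marker Mmp7 and none of their own markers stood among the 10 leading genes of cluster 9. Their clusters 6, 9 and 20 held 3139, 2379 and 3035 CPM of all members in WT against 3559, 2551 and 3392 CPM in MG53-TG. In enteroendocrine-like cells 24 of 32 were higher, beside 49.7% of all genes, with a median of 0.14 beside 0.00, and Acsl1 was 0.83 (0.55 to 1.11).

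Markers of secretory cells were found in other types at levels that differed between libraries. The Paneth list of 9 genes summed to 901 and 372 CPM in early absorptive-like cells of WT and MG53-TG, and the goblet list of 8 genes to 1183 and 1341 CPM. In enterocyte-like cells the Paneth list summed to 1331 and 565 CPM and the goblet list to 2020 and 3194 CPM. In stem-like cells they summed to 1082 and 472 CPM and to 1271 and 1226 CPM. Their part in the member ratios was not tested. The 9 cycling markers summed to 280 CPM in WT against 345 CPM in MG53-TG early absorptive-like cells and to 2272 and 2340 CPM in stem-like cells, and their part was not tested either.

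Other genes of these pathways were taken from lists, which were drawn up with earlier results of these data known. Of 33 further fatty acid oxidation genes past the filter, 20 were higher and 4 were past 25% higher in the epithelial sum, 2 past 20% lower, with a median of 0.10. Among all genes, 64.5% were higher, 18.3% were past 25% higher and 7.48% past 20% lower, with a median of 0.09. Crot, the peroxisomal carnitine octanoyltransferase, was highest at 53.0 CPM in WT against 76.8 CPM in MG53-TG, 0.53 (0.48 to 0.58), followed by Acsl4 (0.49) and Acadsb (0.32). Acsl6 (-0.54), Acox2 (-0.37) and Hacl1 (-0.25) were lowest. The list as a whole stood near all genes.

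Of 17 further PPAR targets, 14 were higher, beside 64.5% of all genes, with a median of 0.15 beside 0.09. Of these targets, 5 were more than 25% higher and 2 past 20% lower, beside the same 18.3% and 7.48% of all genes. G0s2, an inhibitor of adipose triglyceride lipase, went from 187 UMIs (1.76 CPM) in WT to 722 UMIs (8.03 CPM) in MG53-TG, a log2 ratio of 2.19 (1.95 to 2.43), ahead of Mgll (0.84) and Fabp2 (0.46). Cidea (-1.13, from 44 and 17 UMIs) and Plin5 (-0.35) were lowest. G0s2 and Cyp4a10 led the same cluster 11.

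Of the 7 receptors and coactivators, 2 were higher in the epithelial sum, but 3 in stem-like, 6 in early absorptive-like and 6 in enterocyte-like cells, where 64.5%, 57.3%, 59.7% and 57.7% of all genes were higher. In the sum, Ppara had 14.2 CPM in WT against 12.5 CPM in MG53-TG, a log2 ratio of -0.19 (-0.30 to -0.08), whereas its ratio was 0.00 (-0.23 to 0.24) in stem-like and 0.05 (-0.15 to 0.25) in enterocyte-like cells. Ppard had 40.0 and 51.1 CPM in the sum, 0.35 (0.29 to 0.41), with -0.20 (-0.391 to -0.00291) in stem-like and 0.33 (0.21 to 0.44) in enterocyte-like cells. Pparg had 4.29 CPM in each library in the sum. Next to Ppara, the lowest were Ppargc1b (-0.13) and Rxra (-0.12), and Ppargc1a was -0.01. Of 11 fatty acid synthesis genes, 7 were higher in the sum, with a median of 0.06, Acly highest at 0.39 (0.32 to 0.46), followed by Acacb (0.30) and Acaca (0.27), and Fads1 lowest at -0.32 (-0.43 to -0.21), followed by Fads2 (-0.27) and Elovl5 (-0.16). Neither list held more than 1 gene past 25% higher in the sum, a size that 18.3% of all genes reached.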

How the data were processed

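Droplet single-cell libraries (10x 3′ V3 chemistry) were sequenced from sorted intestinal epithelial cells, 1 library per genotype. The deposited tables hold counts of UMIs per gene and barcode, which the authors made with Cell Ranger on mm10. The version recorded in the tables is 4 for WT and 6.0.1 for MG53-TG. How strand and shared reads were treated is not stated. The WT table holds every barcode, the MG53-TG table barcodes with 500 or more UMIs. Barcodes with at least 1354 UMIs and 200 genes and at most 25% mitochondrial UMIs were kept, and 438 WT and 212 MG53-TG barcodes with the highest doublet scores were removed, at 0.8% per 1000 cells, because the automatic threshold marked 0.0135% and 0.0388%. Cells were clustered (scanpy 1.11.5, leidenalg 0.10.2, 2000 variable genes, 30 components, resolution 1) with 94 genes, the members among them, left out, and named from at least 3 markers. UMIs were summed per library and type. The calculation was tested on simulated data.

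Members and lists were chosen with earlier results of these data known. All 38 members are accounted for. UMIs, levels, ratio and interval are given for the 5 members with the highest and the 5 with the lowest ratio in the epithelial sum, the 3 highest and 3 lowest in stem-like and enterocyte-like cells, the 5 highest levels and members with 1 sign in all 8 epithelial types; of other lists, the 3 highest and 3 lowest ratios are named, except 1 gene that is not reported here. Early absorptive-like ratios and the comparison of clusters 7 and 1 were added after values were seen.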

Additional observations from a re-analysis of the deposited data

How the results depend on the processing

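No paired analysis was possible because each genotype has 1 library. Over all alternatives, 190 of 233 summary comparisons and 1474 of 1663 single-member comparisons stayed within their counting interval or, for counts, within 1.5 times. In 7 and 11, a value whose main interval held a single sign took the other sign. Other turns of sign are not in these counts. The causes were not tested.

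In the epithelial sum, scaling by the median of ratios gave medians of -0.055 (mitochondrial) and 0.018 (other target), and 1 member past 20% lower. The mean of single-cell CPM gave -0.040 and -0.11, and 3 members lower. Equal weighting of cell types gave 0.11 and 0.29, and 7 members past 25% higher. Among single members whose main interval held a single sign, some took the other sign. These were Acadl (-0.053), Hadhb (-0.048) and Eci2 (-0.00913) with scaling by the median of ratios. With the mean of single-cell CPM they were Acadl (-0.00571), Hadhb (-0.00552), Pdk4 (-0.074) and Angptl4 (-0.16), and with equal weighting Eci1 (0.058) and Etfa (0.10). In stem-like cells, clustering at resolution 2 gave medians of -0.038 (mitochondrial), -0.11 (peroxisomal) and 0.11 (other target), 1 member past 25% higher and 2 past 20% lower, with Hsd17b4 at -0.10 and Acot1 at -0.20; a mitochondrial limit of 15% gave 1 lower. In early absorptive-like cells, the median of ratios gave a mitochondrial median of 0.14 and 9 members past 25% higher. In enterocyte-like cells, the median of ratios gave 0.063 (mitochondrial) and 0.18 (peroxisomal), clustering with the members 0.19 and 0.32, and a UMI minimum of 3000 and the mean of single-cell CPM 0.33 and 0.30 (both peroxisomal). Between clusters 7 and 1 of MG53-TG, the median of ratios gave 3 other targets past 2-fold higher.

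The enterocyte-like over stem-like ratio of the mitochondrial sum was -0.014 in WT and 0.020 in MG53-TG with a UMI minimum of 3000, 0.24 and 0.24 with a mitochondrial limit of 15%, -0.00420 and 0.057 when clustered with the members, 0.29 and 0.42 at resolution 2, and -0.10 and -0.0602 as the mean of single-cell CPM. That of the peroxisomal sum was 0.16 and 0.21, 0.40 (WT alone moved), 0.18 and 0.27, 0.41 and 0.62, and 0.12 and 0.17 under the same settings.

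With 1 library per genotype, neither the spread between mice nor that between libraries is known, and intervals cover counting error only. Types with few cells (119 MG53-TG Paneth-like cells) and members under 100 UMIs are the least precise. The barcode filter and program version cannot be told apart from genotype.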
